A study of Mus musculus with 24 samples.

Results

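Expression of 6 Fc receptor genes was described across splenic conventional dendritic cells (cDCs) with more or less of the transcription repressor Zeb2: Fcgr1, Fcgr3, Fcgr4, Fcer1g, Fcgr2b and Fcgrt. They were taken by symbol from a fixed list, and all 6 were present among the 24421 gene symbols counted. Receptors for the Fc part of IgG let a dendritic cell take up antigen bound by antibody. The activating receptors encoded by Fcgr1, Fcgr3 and Fcgr4 need the common gamma chain, the product of Fcer1g, which carries an immunoreceptor tyrosine-based activation motif (ITAM) and recruits the kinase Syk. The receptor encoded by Fcgr2b carries an inhibitory motif that recruits the lipid phosphatase SHIP-1, and the balance between both kinds is known to set the response of dendritic cells to immune complexes. The product of Fcgrt, the neonatal Fc receptor, binds IgG inside the cell and protects it from degradation.

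Conventional dendritic cells of the cDC1 and cDC2 subsets were sorted from spleens of untreated C57Bl/6 mice aged 6 to 12 weeks, and their RNA was sequenced in 24 libraries. In the deletion line the 4 Cre-positive libraries of each subset were CD11cCRExZeb2fl/fl, set against 2 Cre-negative libraries with floxed Zeb2 alone. In the transgene line the 4 Cre-positive libraries of each subset were CD11cCRExR26-Zeb2Tg/Tg, set against 2 Cre-negative libraries with the silent transgene in Rosa26 alone. Cre was driven by CD11c sequences, which act in dendritic cells and also in some other leukocytes, so the deletion and the transgene are not limited to the sorted subsets. No group carried Cre without floxed Zeb2 or the transgene, so effects of Cre itself and of Zeb2 cannot be told apart. The labels call the Cre-negative mice littermates and do not state whether replicates came from different mice; p-values therefore reflect the variation among these libraries alone, which may be technical.

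Levels are given as CPM, counts scaled to a common library size with edgeR's TMM correction for library composition, and library totals ran from 21972763 to 36094786 counts. All 8 cDC2 markers (such as Sirpa and Esam) were higher and all 8 cDC1 markers (such as Xcr1 and Clec9a) were lower in control cDC2, set against control cDC1 by the test described below. Zeb2 was 30.7 to 41.4 CPM in Cre-positive cDC2 of the deletion line, against 132 and 176 CPM in their controls, and 0.457 to 2.67 CPM in Cre-positive cDC1, against 0.488 and 2.56 CPM. In the transgene line Zeb2 was 148 to 159 CPM in Cre-positive cDC2, against 104 CPM in each control, and 41.3 to 46.2 CPM in Cre-positive cDC1, against 2.36 and 3.25 CPM. Defining mast cell and basophil genes were at or near 0, with a summed level of at most 0.974 CPM over 5 markers in any library. In bulk RNA, fewer cells of a type and less RNA per cell cannot be told apart.

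Of the 6 genes, 4 lie close together on chromosome 1. In the GRCm38 annotation (GENCODE M21), Fcgr2b occupies chr1:170958617-170976547 on the minus strand, Fcgr4 chr1:171018920-171029761 on the plus strand, Fcgr3 chr1:171051174-171064935 on the minus strand and Fcer1g chr1:171229572-171234365 on the minus strand, within 275.7 kb in all. Fcgr1 lies alone at chr3:96282909-96293969 and Fcgrt at chr7:45092990-45103851, both on the minus strand. Of the 75-base windows along Fcgr3 exons, 94 of 1733 (5.42%) also occur in Fcgr2b, so a read there could belong to either gene. Fcgr2b shares 313 of 5768 windows (5.43%) with any other gene, and part of its exons lies opposite the antisense gene Gm38204. Whether counting used strand is not given in the sources used here, so reads of that pair cannot be told apart. Windows of Fcgr1, Fcgr4, Fcer1g and Fcgrt occur in no other gene.

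Promoters of the chromosome 1 cluster are shown because the inhibitory gene lies there beside 3 genes that activating receptors need. Each line gives the 250 bases before a RefSeq start (GRCm38.p6), 5′ to 3′ on the gene's own strand, at chr1:170976072-170976321 (Fcgr2b, minus strand), chr1:171018676-171018925 (Fcgr4, plus strand), chr1:171059404-171059653 (Fcgr3, minus strand, the upstream-most of its listed starts) and chr1:171234350-171234599 (Fcer1g, minus strand). The RefSeq starts of Fcgr2b and Fcgr3 lie inside the longer GENCODE gene bounds given above. Capitals mark CACCT or its complement AGGTG, the half-site bound by ZEB proteins, and GAGGAA or its complement TTCCTC, a core bound by the myeloid factor PU.1.
Fcgr2b: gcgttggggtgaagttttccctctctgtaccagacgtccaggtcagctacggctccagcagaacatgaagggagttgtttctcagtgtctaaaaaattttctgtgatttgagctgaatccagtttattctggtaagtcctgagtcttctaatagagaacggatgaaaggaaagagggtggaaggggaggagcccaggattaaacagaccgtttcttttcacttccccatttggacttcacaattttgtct
Fcgr4: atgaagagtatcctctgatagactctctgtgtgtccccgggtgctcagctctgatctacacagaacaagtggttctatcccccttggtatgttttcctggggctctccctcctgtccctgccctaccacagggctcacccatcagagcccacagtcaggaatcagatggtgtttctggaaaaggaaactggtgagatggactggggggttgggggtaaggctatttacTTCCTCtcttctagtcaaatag
Fcgr3: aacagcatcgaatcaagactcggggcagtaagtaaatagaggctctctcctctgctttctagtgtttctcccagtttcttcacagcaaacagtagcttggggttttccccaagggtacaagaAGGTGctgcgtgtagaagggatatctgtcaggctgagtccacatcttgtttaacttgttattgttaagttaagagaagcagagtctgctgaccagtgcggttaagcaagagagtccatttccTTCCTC
Fcer1g: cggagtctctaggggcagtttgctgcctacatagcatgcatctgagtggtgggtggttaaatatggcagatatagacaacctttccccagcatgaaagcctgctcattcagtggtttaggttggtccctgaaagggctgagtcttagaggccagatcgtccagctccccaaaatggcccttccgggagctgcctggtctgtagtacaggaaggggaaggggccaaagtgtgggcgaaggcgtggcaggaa
The CACCT half-site occurred in the window of Fcgr3 alone among the 6 genes, 128 bases before the start, and in 46% of 32851 RefSeq windows of the same length. The GAGGAA core occurred in the windows of Fcgr3, Fcgr4 and Fcgr1, 6, 22 and 55 bases before the start, and in 23.3% of all windows. Neither was found in the windows of Fcgr2b, Fcer1g and Fcgrt. Both strands were searched, no matches overlapped in these windows, and a match describes letters, not binding.

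**Figure D1:**
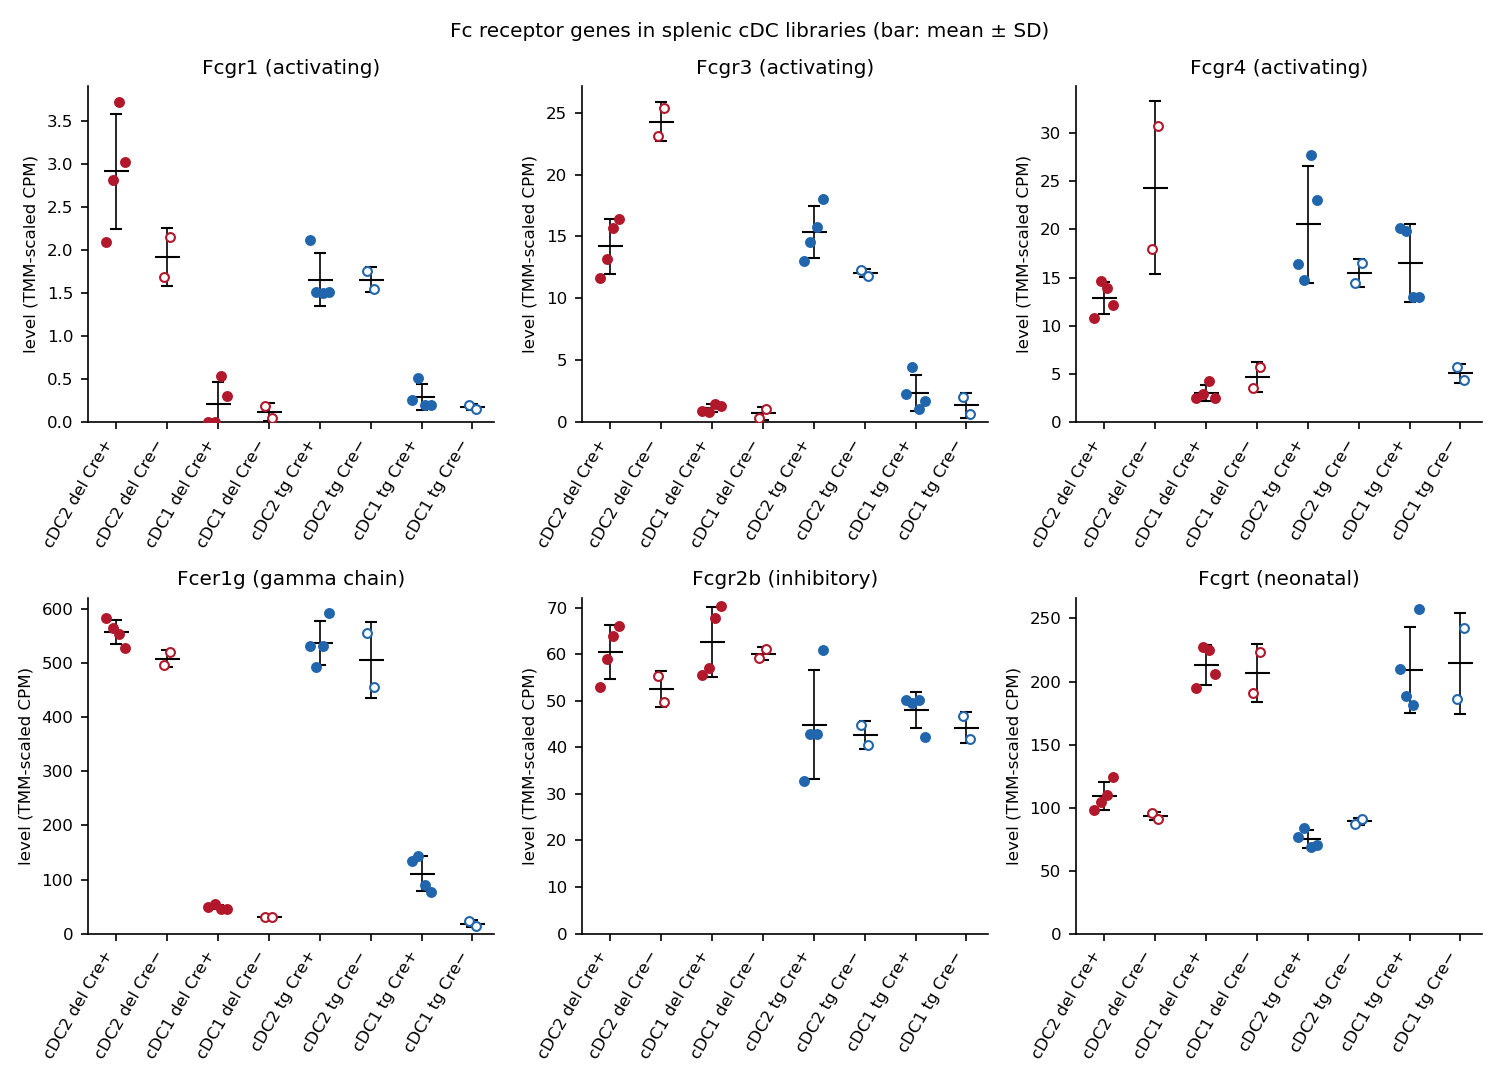
Levels of the 6 genes (vertical axis, TMM-scaled CPM, a separate linear scale per gene) in each library, with the mean and SD of each group as bars. Red is the deletion line (del), blue the transgene line (tg), filled points are Cre-positive (n = 4) and open points Cre-negative (n = 2). Fcer1g is at 457 CPM or more in every cDC2 library and at 143 CPM or less in every cDC1 library, while Fcgr2b lies between 32.8 and 70.3 CPM throughout.

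Across the 8 groups the genes fell into different orders. Fcer1g was highest in the 4 cDC2 groups, with means of 506.4 to 558 CPM and overlap between neighbours in their order. Below them came Cre-positive cDC1 of the transgene line (111 ± 32.8 CPM), Cre-positive cDC1 of the deletion line (48.4 ± 3.81), deletion-line control cDC1 (30.5 ± 0.257) and transgene-line control cDC1 (18.4 ± 6.32; SD, n = 4 or 2), and no neighbouring pair among these overlapped. Fcgr4 did not split by subset: transgene-line Cre-positive cDC1 (16.5 ± 4.06 CPM, n = 4) stood among the cDC2 groups, between Cre-positive cDC2 of the same line (20.5 ± 6.03) and its control cDC2 (15.5 ± 1.46), and overlapped both. Fcgr3 and Fcgr1 separated all cDC2 groups from all cDC1 groups without overlap. For Fcgr3 the next gap lay within cDC2, where the deletion-line controls (24.3 ± 1.60 CPM, n = 2) stood above the other 3 groups (means of 12.1 to 15.4 CPM). Fcgrt was in the opposite order, with the 4 cDC1 groups at 207 to 214 CPM and the 4 cDC2 groups at 75.1 to 109 CPM.

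Fcgr2b was the least variable gene between groups, with means of 42.6 to 62.6 CPM, and its order followed the line more than the subset. The 4 highest means were those of the deletion line and the 4 lowest those of the transgene line, and most neighbours in that order overlapped. Per kilobase of exons, which allows genes to be compared, Fcer1g was the most abundant in control cDC2 (580.7 ± 47.8 CPM per kb, n = 4), ahead of Fcgrt (43.4 ± 1.60), Fcgr4 (15.9 ± 5.85), Fcgr3 (10.5 ± 4.10), Fcgr2b (8.21 ± 1.10) and Fcgr1 (0.689 ± 0.1002). In control cDC1 the order was Fcgrt (100.2 ± 12.9 CPM per kb, n = 4), Fcer1g (28.0 ± 9.03), Fcgr2b (9.01 ± 1.62), Fcgr4 (3.86 ± 0.849), Fcgr3 (0.588 ± 0.437) and Fcgr1 (0.0559 ± 0.0278). In control cDC2 the range of Fcgr3 overlapped those of Fcgr4 and Fcgr2b, and Fcgr4 lay above Fcgr2b, whereas in control cDC1 Fcgr2b lay above all 3 activating receptors. Without division by length, Fcgr2b stood above Fcgr4 in control cDC2 as well (47.5 ± 6.38 against 19.9 ± 7.35 CPM). The order per kilobase thus depends on the exon lengths used, 5790 bases for Fcgr2b and 1256 bases for Fcgr4.

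The first comparison asked how control cDC2 and control cDC1 differ in Fc receptors. Activating receptors and their gamma chain were higher in cDC2, the inhibitory receptor overlapped between the subsets, and the neonatal receptor was lower in cDC2. Genes were tested with edgeR's quasi-likelihood test on the counts, p-values were adjusted by Benjamini-Hochberg over 13166 genes, and an adjusted p under 0.05 was called. Of the 6 genes, 5 were called, against 53.4% of all genes tested. The 4 called higher compare with 27.6% of all genes, and the 1 called lower with 25.8%.

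Fcer1g was 497.2 and 520.1 CPM (deletion line) and 556 and 457 CPM (transgene line) in control cDC2, against 30.7 and 30.3 CPM (deletion line) and 22.9 and 13.9 CPM (transgene line) in control cDC1; the lines keep these places for the other genes. The groups stood far apart, a 20.8-fold difference of means, with a log2 fold change of 4.42 ± 0.18 (SE, n = 4 each; adjusted p = 1.58e-15). Fcgr3, which encodes the activating receptor CD16, was 23.1, 25.4, 12.3 and 11.8 CPM in control cDC2, against 0.301, 1.09, 2.05 and 0.640 CPM in control cDC1, a 17.8-fold difference without overlap. Its log2 fold change was 4.13 ± 0.37 (adjusted p = 2.04e-09). Fcgr4, which in the mouse encodes an activating receptor for IgG2 subclasses, was 17.99, 30.7, 14.4 and 16.5 CPM in control cDC2, against 3.57, 5.76, 5.71 and 4.38 CPM in control cDC1. All cDC2 values lay above all cDC1 values, with a 4.1-fold difference and a log2 fold change of 2.00 ± 0.24 (adjusted p = 2.02e-07).

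Fcgr1, the gene of the high-affinity IgG receptor CD64 and commonly used as a macrophage and monocyte marker, was scarce in both subsets. It had 44 to 56 counts per library in control cDC2, against 1 to 5 counts in control cDC1, which is 1.78 ± 0.260 and 0.145 ± 0.0720 CPM (SD, n = 4 each). The groups did not overlap, with a log2 difference of 3.59 ± 0.67 (SE; adjusted p = 8.46e-05). Fcgr2b was 55.2, 49.7, 44.7 and 40.5 CPM in control cDC2, against 59.1, 61.0, 46.6 and 41.8 CPM in control cDC1. These values overlapped, and the log2 difference of -0.13 had a 95% interval of -0.40 to 0.15 (adjusted p = 0.445). Fcgrt was 95.4, 91.2, 87.1 and 90.8 CPM in control cDC2, against 191, 223, 186 and 243 CPM in control cDC1, 2.31-fold lower and without overlap (log2 fold change -1.21 ± 0.11, adjusted p = 2.44e-09).

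**Figure D2:**
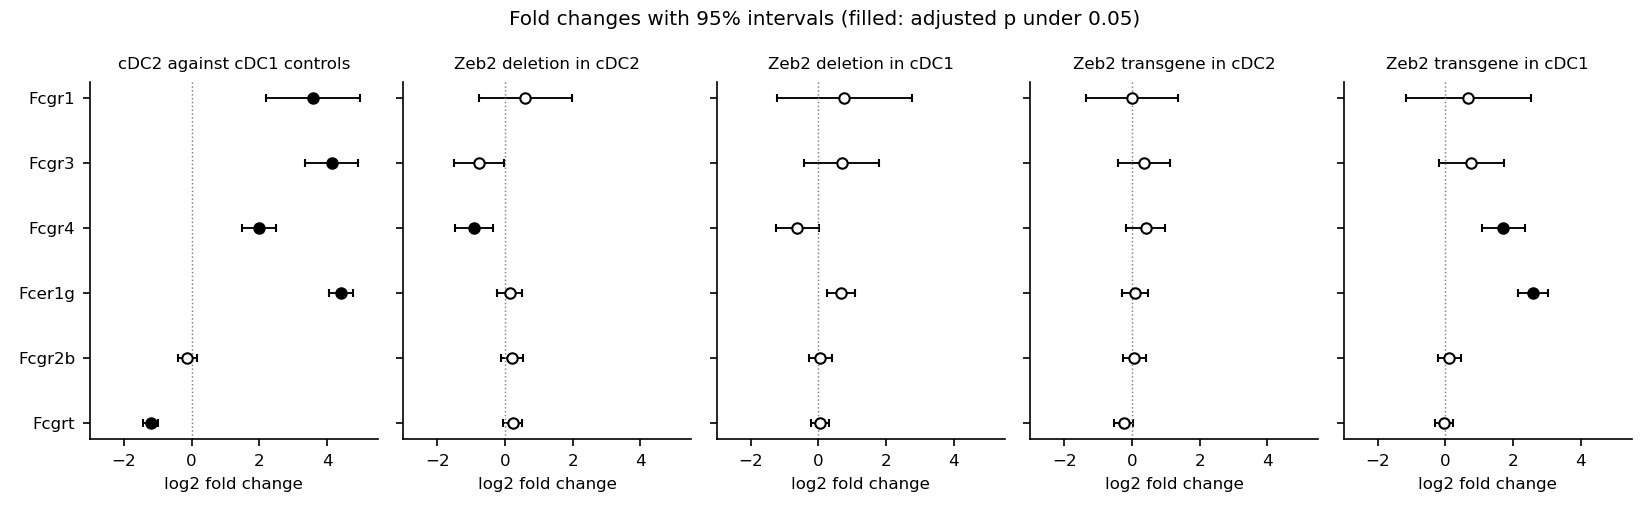
Log2 fold changes of the 6 genes (horizontal axis) in 5 comparisons, with 95% intervals from the edgeR fit, and filled points for an adjusted p under 0.05. Control cDC2 against control cDC1 has 5 filled points, Zeb2 deletion in cDC2 has 1 (Fcgr4, at -0.92) and the Zeb2 transgene in cDC1 has 2 (Fcgr4 at 1.71 and Fcer1g at 2.58).

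The next comparison asked what the loss of Zeb2 does to Fc receptors in cDC2. Among the 6 genes, Fcgr4 fell 1.89-fold, a call that did not survive the loss of any 1 library. No other member was called, so the count was 1 of 6, against 5.21% of all genes tested (2.88% lower and 2.33% higher). Fcgr4 was 10.9, 14.6, 13.9 and 12.2 CPM in Cre-positive cDC2 of the deletion line, against 17.99 and 30.7 CPM in their Cre-negative controls. The groups did not overlap, but the controls lay far apart, and the log2 fold change was -0.92 ± 0.27 (SE, n = 4 and 2; edgeR adjusted p = 0.0459). Leaving out any 1 of the 6 libraries ended the call, with adjusted p-values of 0.0514 to 0.531, and without control replicate 2 the log2 fold change was -0.49. A fit with the replicate number as a block gave an adjusted p of 0.0506.

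Fcgr3 was 11.6, 13.1, 15.7 and 16.4 CPM in Cre-positive cDC2 of the deletion line, against 23.1 and 25.4 CPM in their controls. The groups did not overlap, yet the log2 difference of -0.77 ± 0.36 missed the threshold (edgeR adjusted p = 0.252). Fitted on these 6 libraries alone, the same difference gave an adjusted p of 0.0183. Control cDC2 of the transgene line had 12.3 and 11.8 CPM of Fcgr3, below the deletion-line controls and level with the Zeb2-deleted cells. Between the control cDC2 of the lines, transgene over deletion, the log2 difference of Fcgr3 was -1.01 ± 0.43 (adjusted p = 0.486, or 0.0360 with those 4 libraries alone). For Fcgr4 the same difference was -0.66 ± 0.32 (adjusted p = 0.546). Fitted on all 24 libraries, neither edgeR nor DESeq2 called any of the 6 genes between the line controls. That edgeR fit called 0.137% of all genes in cDC2 and 0.129% in cDC1. At an unadjusted p under 0.05, 2 passed in cDC2 (Fcgr3 and Fcgr4) and 2 in cDC1 (Fcer1g and Fcgr2b, with log2 differences of -0.72 and -0.44). For these and later counts at an unadjusted p, the share of all genes is not given. Such counts therefore cannot be read as more than all genes show.

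None of the remaining members was called in deletion-line cDC2. Fcer1g was 583, 566, 554 and 529 CPM in Cre-positive cDC2, against 497.2 and 520.1 CPM in controls, just without overlap (log2 difference 0.13, 95% interval -0.25 to 0.52, adjusted p = 0.782). Fcgr2b was 52.9, 59.0, 63.9 and 66.0 CPM in Cre-positive cDC2, against 55.2 and 49.7 CPM (log2 difference 0.21, interval -0.13 to 0.54). Fcgrt was 98.1, 104, 109.7 and 124 CPM in Cre-positive cDC2, against 95.4 and 91.2 CPM, also without overlap (log2 difference 0.23, interval -0.05 to 0.50, adjusted p = 0.409). Fcgr1 had 54, 71, 96 and 78 counts in Cre-positive cDC2, against 45 and 56 counts, and its log2 difference of 0.60 had an interval of -0.77 to 1.98. Monocyte markers were lower beside Fcgr4 as a sum: the summed level of the 8 markers was 82.3 to 130 CPM in Cre-positive cDC2, against 190 and 228 CPM in controls. Of the 7 tested, Ccr2 was lower (42.3 ± 12.7 against 146 ± 13.9 CPM) and Chil3 higher (2.01 CPM against 0 CPM in the controls), and the other 5 were not called. Cd14 averaged 14.4 ± 3.69 CPM in Cre-positive cDC2 and 29.6 ± 7.95 CPM in controls (adjusted p = 0.126), and the part of such cells in the Fcgr4 difference was not tested.

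In cDC1, where Zeb2 was low before any deletion, none of the 6 genes was called with the deletion. At that threshold 0.0228% of all genes (3 of 13166) were called. At an unadjusted p under 0.05, 1 of the 6 passed: Fcer1g was 48.3, 53.8, 46.0 and 45.5 CPM in Cre-positive cDC1, against 30.7 and 30.3 CPM in their controls. These groups did not overlap, a 1.59-fold difference with a log2 value of 0.67 ± 0.20 (SE; edgeR adjusted p = 0.815). DESeq2 also called none of the 6. Fcgr4 was 2.48, 2.87, 4.23 and 2.54 CPM in Cre-positive cDC1, against 3.57 and 5.76 CPM, and the ranges overlapped (log2 difference -0.62, interval -1.25 to 0.01). Fcgr3 had 23, 19, 33 and 30 counts in Cre-positive cDC1, against 8 and 26 counts, and Fcgr1 had 0, 0, 12 and 7 counts, against 5 and 1. A count of 0 allows up to 0.114 and 0.125 CPM in those 2 libraries, which covers counting error only, so Fcgr1 was near the detection limit in cDC1. Fcgr2b (55.5 to 70.3 CPM in Cre-positive cDC1, against 59.1 and 61.0 CPM) and Fcgrt (194.5 to 227 CPM, against 191 and 223 CPM) overlapped their controls, with log2 differences of 0.06 and 0.04.

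The Zeb2 transgene line gave, in cDC1, the largest called Cre effects among the 6 genes. Fcer1g rose 6.02-fold and Fcgr4 rose 3.28-fold, while Fcgr2b and Fcgrt kept log2 differences of 0.12 and -0.04. The count was 2 of 6 called, both higher, against 7% of all genes tested (3.58% higher and 3.42% lower). Fcer1g was 134, 143, 89.4 and 76.6 CPM in transgene-line Cre-positive cDC1, against 22.9 and 13.9 CPM in their controls. The lowest Cre-positive library stood well above the higher control, and the log2 fold change was 2.58 ± 0.22 (SE, n = 4 and 2; edgeR adjusted p = 4.23e-08). Control cDC1 of the deletion line had more Fcer1g than these controls, at 30.7 and 30.3 CPM, so the size of the fold depends on the controls. Fcgr4 was 20.2, 19.9, 13.03 and 13.01 CPM in Cre-positive cDC1, against 5.71 and 4.38 CPM in controls, again without overlap. Its log2 fold change was 1.71 ± 0.31 (adjusted p = 0.000869), and with each library left out in turn the adjusted p stayed at or below 0.0372.

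Replicates 1 and 2 of these Cre-positive libraries were higher than replicates 3 and 4 in both genes, and among the pairs of the group replicates 1 and 2 resembled each other most (chi-square per gene 14.21, the other pairs 41.1 to 51.1). Without replicates 1 and 2, a choice made after seeing the data, the log2 fold change was 2.17 for Fcer1g (edgeR adjusted p = 6.18e-08) and 1.36 for Fcgr4 (adjusted p = 0.0135). Without replicates 3 and 4 it was 2.91 for Fcer1g and 1.99 for Fcgr4 (adjusted p = 0.000278). The 2 other activating receptors stayed low: Fcgr3 was 2.23, 4.45, 1.09 and 1.71 CPM in Cre-positive cDC1, against 2.05 and 0.640 CPM, and overlapped its controls (log2 difference 0.76, adjusted p = 0.383). That difference was 1.87 without control replicate 1, 0.20 without control replicate 2 and 0.29 without Cre-positive replicate 2, none of them called. Fcgr1 had 7, 12, 5 and 7 counts in Cre-positive cDC1, against 5 and 3 counts (log2 difference 0.68, interval -1.17 to 2.52). Fcgr2b was 50.1, 49.4, 50.2 and 42.2 CPM in Cre-positive cDC1, against 46.6 and 41.8 CPM (log2 interval -0.22 to 0.45), and Fcgrt was 209.9, 188, 181 and 257 CPM, against 186 and 243 CPM (log2 interval -0.31 to 0.24).

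Set beside control cDC2 of the same line, the Cre-positive cDC1 reached different shares for different members. The mean level of Fcgr4 in Cre-positive cDC1 was 107% of that in control cDC2, and in Cre-negative cDC1 it was 32.6%. For Fcer1g the shares were 21.9% in Cre-positive and 3.63% in Cre-negative cDC1, for Fcgr3 19.6% and 11.1%, and for Fcgr1 17.5% and 10.5%. Fcgr2b stood at 113% and 104%, and Fcgrt at 235% and 241%. The 8 cDC2 markers in Cre-positive cDC1 ranged from 1.77% to 66.6% of control cDC2, with a median of 13.4%, so all 8 lay below Fcgr4 and 5 lay below Fcer1g. In Cre-negative cDC1 these markers started below Fcgr4, at 0.0158% (Clec4a4) to 15% (Cd300a). Their median log2 fold change with the transgene was 2.56, against 1.71 for Fcgr4 and 2.58 for Fcer1g. The shares thus rank levels reached, not the size of the rise.

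Markers of other cells, and those of cDC1, differed in the same libraries. The summed level of the 8 cDC2 markers was 621, 579, 411 and 349 CPM in Cre-positive cDC1, against 104 and 90.8 CPM in controls and 2920 and 3040 CPM in control cDC2 of the line, and all 8 were called higher. The 7 red pulp macrophage markers summed to 486, 453, 259 and 370 CPM in Cre-positive cDC1, against 156 and 189 CPM, and 3 of the 7 (Adgre1, Hmox1 and Spic) were called higher. Of the 4 uncalled, Slc40a1 was 84.9 CPM in Cre-positive cDC1 and 29.9 CPM in controls, Mertk 0.670 and 0.424 CPM, Vcam1 84.7 and 78.8 CPM, and Cd5l 1.70 and 3.24 CPM. The median log2 difference of the 7 was 1.51, beside 0.02 over all genes. The 8 cDC1 markers summed to 5243 to 6740 CPM in Cre-positive cDC1, against 8204 and 10260 CPM in controls, and 4 were called lower (Tlr3, Itgae, Wdfy4 and Irf8). Monocyte markers summed to 116 to 215 CPM in Cre-positive cDC1, against 59.4 and 219 CPM, and none of the 7 tested was called. The part of such cells in the rise of Fcer1g and Fcgr4 was not tested.

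In cDC2, which already expressed Zeb2, the transgene gave no called change of an Fc receptor. None of the 6 genes was called by edgeR, against 0.327% of all genes tested, none passed an unadjusted p under 0.05, and DESeq2 called none. Fcgr3 was 13.03, 14.6, 15.8 and 18.04 CPM in transgene-line Cre-positive cDC2, against 12.3 and 11.8 CPM in controls, without overlap (log2 difference 0.35, interval -0.42 to 1.12). Fcgrt was 77.0, 84.1, 68.5 and 70.7 CPM in Cre-positive cDC2, against 87.1 and 90.8 CPM, all below the controls (log2 difference -0.25, edgeR adjusted p = 0.636). Fcgr4 was 16.5, 14.7, 27.8 and 23.1 CPM in Cre-positive cDC2, against 14.4 and 16.5 CPM, and overlapped (log2 difference 0.41, interval -0.17 to 0.98). Fcer1g was 494 to 593 CPM in Cre-positive cDC2, against 556 and 457 CPM, and Fcgr2b 32.8 to 60.8 CPM, against 44.7 and 40.5 CPM, with log2 differences of 0.09 and 0.07. Fcgr1 had 56, 40, 36 and 40 counts in Cre-positive cDC2, against 47 and 44 counts.

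Whether Cre acted differently in the 2 subsets was tested directly, as the Cre effect in cDC2 minus that in cDC1. In the transgene line Fcer1g was the 1 call among the 6 genes, against 2.01% of all genes tested. Its difference of effects was -2.50 ± 0.27 on the log2 scale (SE; edgeR adjusted p = 9.05e-06), from effects of 0.09 in cDC2 and 2.58 in cDC1. For Fcgr4 the difference of -1.30 ± 0.40 missed the threshold (adjusted p = 0.104), while DESeq2 gave 0.0488. In the deletion line none of the 6 passed, against 1.08% of all genes. At an unadjusted p under 0.05, 1 of the 6 did: Fcgr3, with a difference of -1.45 ± 0.64 (edgeR adjusted p = 0.322), and DESeq2 called none of the 6. Without deletion-line control cDC1 replicate 1 that difference was -0.77, and without replicate 2 it was -2.64.

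The balance of activating over inhibitory receptors was compared within each library, as the log2 ratio of the counts of an activating gene to those of Fcgr2b, with 0.5 counts added to each. Every activating receptor weighed more against Fcgr2b in control cDC2 than in control cDC1. Per 100 counts of Fcgr2b, control cDC2 had 27.5 to 51.1 counts of Fcgr3 and 32.3 to 61.8 of Fcgr4, against 0.508 to 4.40 of Fcgr3 and 6.04 to 12.2 of Fcgr4 in control cDC1. The mean log2 ratio was higher in control cDC2 by 4.48 for Fcgr3, 3.71 for Fcgr1 and 2.12 for Fcgr4. Each gave p = 0.0286 in an exact two-sided permutation test over libraries, the smallest p that 4 against 4 allows, or 0.143 after Benjamini-Hochberg adjustment over the 15 ratio tests.

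With Zeb2 deleted in cDC2, every library had less Fcgr3 and less Fcgr4 per Fcgr2b than either control. Fcgr3 had 22.0, 22.3, 24.6 and 24.9 counts per 100 of Fcgr2b in Cre-positive cDC2, against 41.9 and 51.1 in controls, a tight group below its controls (log2 difference -0.98). Fcgr4 had 20.5, 24.8, 21.8 and 18.4 in Cre-positive cDC2, against 32.6 and 61.8 in controls (log2 difference -1.08). Neither overlapped, and both reached p = 0.0667 by exact permutation, the smallest that 4 against 2 allows (0.167 adjusted). Fcgr1 differed by 0.38 in log2 ratio (exact p = 0.2).

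With the Zeb2 transgene in cDC1, Fcgr4 had 40.3, 40.2, 26.0 and 30.8 counts per 100 of Fcgr2b in Cre-positive cDC1, against 12.2 and 10.5 in controls. The log2 ratio was 1.57 higher without overlap, at the smallest possible exact p of 0.0667 (0.167 adjusted). The ratios of Fcgr3 and Fcgr1 differed by 0.72 and 0.43 there and overlapped their controls (exact p = 0.4 and 0.467). In deletion-line cDC1 and transgene-line cDC2, the 6 ratio differences ran from -0.66 to 0.82, with exact p-values of 0.133 to 0.867.

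**Figure D3:**
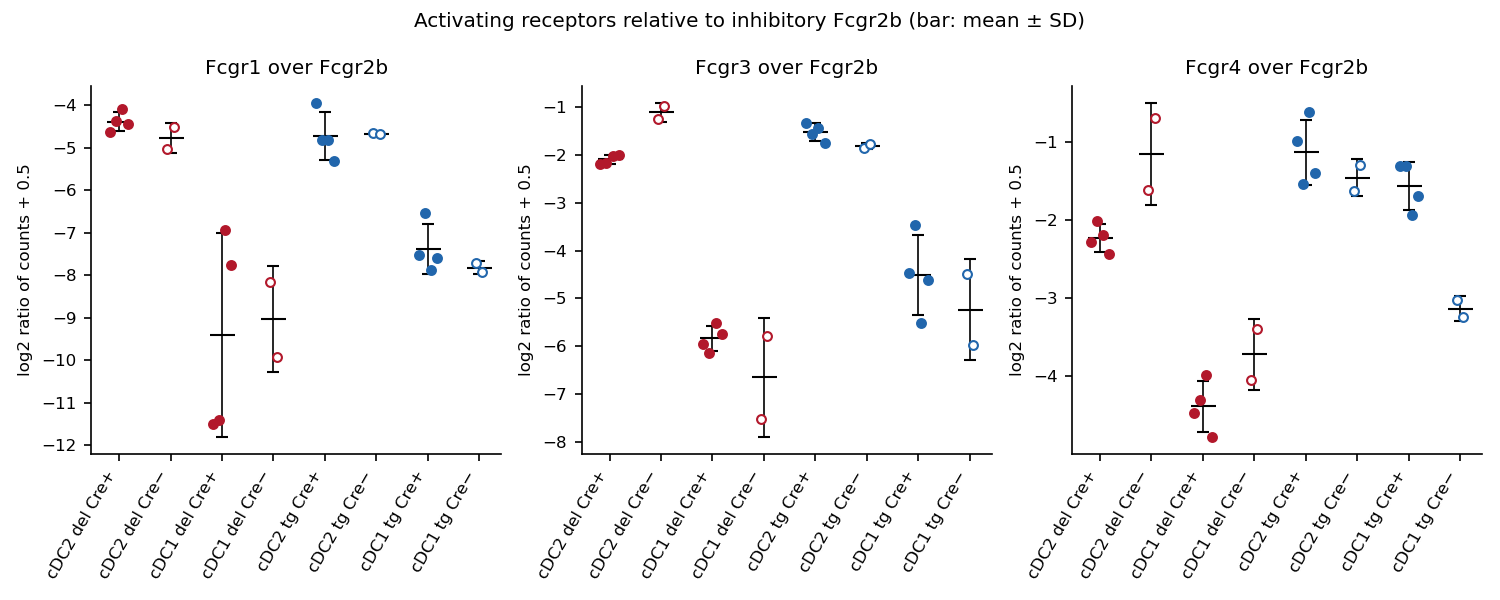
Log2 ratio of the counts (0.5 added) of Fcgr1, Fcgr3 and Fcgr4 to those of Fcgr2b in each library (vertical axis, a separate scale per gene), with group means and SDs as bars, colours and fills as in the plot of levels. The Cre-positive deletion-line cDC2 lie about 1 log2 unit below their controls for Fcgr3 (-0.98) and Fcgr4 (-1.08), and Cre-positive transgene-line cDC1 lie 1.57 above theirs for Fcgr4.

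Per kilobase of exons, the share of Fcgr2b among the 4 Fc gamma receptor genes put these differences on 1 scale. In deletion-line cDC2 it was 34.9 ± 1.39% in Cre-positive and 21.5 ± 5.31% in Cre-negative libraries (SD, n = 4 and 2), with no overlap (33.4 to 36.1% and 17.7 to 25.2%). In transgene-line cDC1 it was 36.9 ± 5.68% in Cre-positive and 61.5 ± 4.77% in Cre-negative libraries (31.5 to 43.9% and 58.1 to 64.9%). The highest shares were in deletion-line cDC1, with 77.8 ± 3.61% in Cre-positive and 71.8 ± 7.03% in Cre-negative libraries. In transgene-line cDC2 they were 23.1 ± 3.81% in Cre-positive and 27.0 ± 2.31% in Cre-negative libraries, and these overlapped. The size of each share depends on the exon length used, 5790 bases for Fcgr2b and 1736, 1256 and 2589 bases for Fcgr3, Fcgr4 and Fcgr1.

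Other Fc-binding and Fc receptor-like genes differed widely between the control subsets. Of the 14 in the list, 9 were tested, and in control cDC2 against control cDC1, 5 were higher and 3 lower (27.6% and 25.8% of all genes), with a median log2 difference of 0.53 beside 0.05 over all genes tested. Fcrla and Fcrlb, which encode Fc receptor-like proteins kept inside B cells, were 16.9-fold and 14.4-fold lower in control cDC2 (2.69 and 1.67 CPM, against 45.7 and 24.0 CPM in control cDC1). Fcrl1, a B-cell co-receptor gene, was 3.64-fold higher, and Fcer2a, which encodes the low-affinity IgE receptor CD23, was 9.82-fold higher (6.21 against 0.632 CPM). Fcrl5, B2m and Fcrls were also higher and Trim21 lower, and these 4 are named after their values were seen. The 5 untested genes (Fcer1a, Ms4a2, Fcamr, Pigr and Fcrl6) reached at most 16 counts in any library, so the chains that would form the high-affinity IgE receptor with Fcer1g were nearly undetected.

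With Zeb2 deleted in cDC2, 3 of these 9 genes rose and 1 fell, where 2.33% of all genes rose and 2.88% fell (median 0.16, beside 0.01 over all genes). Fcrla rose 13-fold (18.5 against 1.43 CPM; log2 fold change 3.70 ± 0.39, edgeR adjusted p = 3.2e-06), and this call held without each library in turn. Fcer2a rose 6.64-fold (30.3 against 4.57 CPM) and B2m, the partner chain of the neonatal Fc receptor and of MHC class I, rose 1.48-fold, and both calls were lost without control replicate 1 (adjusted p = 0.0675 and 0.314). Fcrl5 fell 6.05-fold (0.787 against 4.76 CPM), a call lost in 5 of the 6 fits that left out a library. B-cell markers were higher as a sum beside Fcrla and Fcer2a, with 195 to 252 CPM over 6 markers in Cre-positive cDC2, against 57.5 and 71.5 CPM in controls. Ms4a1 was the 1 called of 5 tested (186 ± 21.2 against 17.3 ± 7.35 CPM), while Cd79b was 28.4 ± 6.36 against 40.6 ± 0.257 CPM and Cd79a 4.15 against 4.95 CPM. The part of B cells in these 2 calls was not tested.

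Added Zeb2 in cDC1 moved Fcrla the other way. Fcrla fell 11.9-fold (3.22 CPM in Cre-positive cDC1, against 38.2 CPM in controls; log2 fold change -3.57 ± 0.30, edgeR adjusted p = 4.23e-08), and Fcrlb fell 2.21-fold (10.8 against 24.0 CPM), a call lost without control replicate 2 (adjusted p = 0.0993). They were the 2 called of 9 tested, where 3.42% of all genes fell (median -0.25, beside 0.02 over all genes), and their direction was that of control cDC2 against control cDC1, a comparison that uses the same control cDC1. B-cell markers summed to 10.6 to 24.7 CPM in Cre-positive cDC1, against 32.7 and 49.8 CPM, with Ms4a1 the 1 called lower of 5 tested (11.1 against 33.9 CPM), and their part was not tested. The Cre effect on Fcrla differed between subsets in both lines, with cDC2 minus cDC1 differences of 3.56 ± 0.47 in the deletion line (adjusted p = 0.000217) and 2.89 ± 0.47 in the transgene line (adjusted p = 0.000921).

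Signalling genes downstream of the receptors were broadly measured, with all 22 activating and all 10 inhibitory genes tested. In control cDC2 against control cDC1, 14 activating genes were higher and 3 lower, where 27.6% of all genes were called higher and 25.8% lower. Their median log2 difference was 0.60, beside 0.05 over all genes. Among the higher, the Src-family kinase Fgr was 11.5-fold higher (598 against 52.2 CPM), Syk, which binds the phosphorylated gamma chain, 3.21-fold (210 against 65.4 CPM), the adaptor Lcp2 (SLP-76) 2.59-fold and the exchange factor Vav2 2.33-fold. The 3 lower were Vav3, Vav1 and Btk, named after their values were seen. Of the inhibitory genes 4 were higher and 4 lower, with a median of 0.46. The phosphatase gene Ptpn6 (SHP-1) was 4.23-fold higher in control cDC2, and Inpp5d, which encodes SHIP-1, the phosphatase recruited by the Fcgr2b product, was 1.95-fold lower (476 against 927 CPM). Csk and Pag1, which restrain Src kinases together, were 1.85-fold and 5.64-fold higher. Of the 3 adaptor genes with or paired with an ITAM, Tyrobp (DAP12) was higher, by 1.88-fold.

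**Figure D4:**
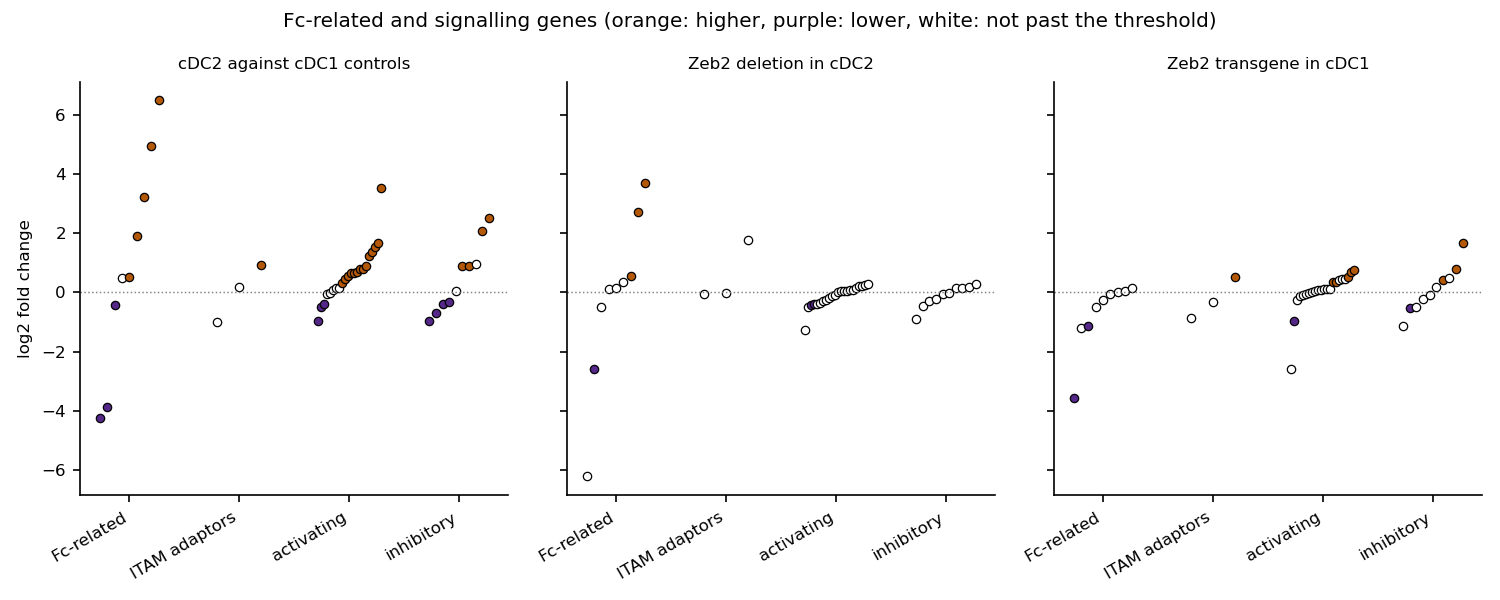
Log2 fold changes (vertical axis) of the tested genes of 4 lists in 3 comparisons, each point 1 gene in order of its value, orange for called higher, purple for called lower and white for neither. The activating list has 14 higher and 3 lower genes between the control subsets, 2 lower genes with Zeb2 deleted in cDC2, and 5 higher and 1 lower with the Zeb2 transgene in cDC1.

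In the transgene-line cDC1, 5 activating genes rose and 1 fell, where 3.58% of all genes rose and 3.42% fell (median 0.10 beside 0.02 over all genes). Lcp2 rose 1.67-fold and the adaptor Lat2 (NTAL) 1.62-fold, and Syk (1.45-fold) and Lyn (1.28-fold) rose as well, named after their values were seen. The phospholipase Plcg1 fell 1.94-fold. Of the inhibitory genes, Ptpn6 rose 1.74-fold (284 CPM in Cre-positive cDC1, against 163 CPM), Csk 1.33-fold and Pag1 3.2-fold, and Inpp5d fell 1.44-fold (647 against 931 CPM), with a list median of 0.05. Tyrobp rose 1.44-fold (342 against 237 CPM; edgeR adjusted p = 0.00226). Leaving out control replicate 1 ended the calls of Csk (adjusted p = 0.129) and Pag1 (0.116), and leaving out control replicate 2 those of Inpp5d (0.0689) and Pag1 (0.143).

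With Zeb2 deleted in cDC2, 2 of the 22 activating genes fell, beside 2.88% of all genes, with a list median of -0.03 beside 0.01. They were Lat2, by 1.33-fold, and the kinase Fyn, by 1.32-fold, and none of the 10 inhibitory or 3 adaptor genes was called by edgeR or DESeq2 (2 and 1 at an unadjusted p under 0.05). The call of Fyn was lost in all 6 fits that left out a library (adjusted p = 0.0593 to 0.455) and that of Lat2 in 3 of them. In deletion-line cDC1 and transgene-line cDC2, edgeR and DESeq2 called no gene of the 4 lists. At an unadjusted p under 0.05, 1 activating and 1 inhibitory gene passed in deletion-line cDC1, and 5 activating and 1 inhibitory gene in transgene-line cDC2. For the difference in Cre effect (cDC2 minus cDC1) in the transgene line, edgeR called Tyrobp (-0.58, adjusted p = 0.0373), Lcp2 (-0.65, adjusted p = 0.0311) and Cblb (0.88, adjusted p = 0.0422). Each lost its call in 7 to 9 of the 12 fits that left out a library. By that test edgeR called 2.01% of all genes. DESeq2 called 3 activating and 4 inhibitory genes there, among 475 genes called of the 13166. In the deletion line neither tool called a signalling gene by that test, and 6 activating and 3 inhibitory genes passed an unadjusted p under 0.05. The share of all genes at an unadjusted p is not given beside these counts.

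The genes whose 8 group means followed each member most closely were found by the root mean square (RMS) difference of centred log2 CPM values over 9316 other genes, each averaging at least 2 in log2 CPM. For Fcer1g the nearest was Abi3 (RMS 0.23), which averaged 39.0 CPM in transgene-line Cre-positive cDC1, against 9.24 CPM in controls, and was followed by Apobec1 (0.33) and Ltb4r1 (0.34). For Fcgr4 the nearest were Cd302 (0.28), Ccnf (0.36) and Hpgds (0.37), and Ccnf averaged 39.1 CPM in those Cre-positive cDC1, against 20.2 CPM, and 26.3 CPM in Zeb2-deleted cDC2, against 50.0 CPM. For Fcgr3 they were Cebpb (0.33) and Gngt2 (0.36), and for Fcgr1 Spns3 (0.15) and Ccnd2 (0.23). With a prior count of 5 in place of 2, the 3 nearest to Fcgr1 were other genes (Spire1, Fbrsl1 and Gbp8), so the neighbours of this scarce gene depended on that setting. Fcgrt was closest to Trafd1 (0.09), Rasgrp3 (0.10) and Dgcr6 (0.11), and Fcgr2b to A630089N07Rik (0.09), Sik3 (0.10) and Mlxip (0.10). A flat gene such as Fcgr2b has many near neighbours, and the RMS is a description of 8 points.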

How the data were processed

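RNA from sorted splenic cDC1 and cDC2 was sequenced in 24 libraries (4 ng of RNA amplified with SMART-Seq v4, 75 bp single reads, per the labels' protocols). The authors deposited whole-number counts per gene symbol, not normalized. Per the submitters' processing notes, FastQC 0.11.4, Trimmomatic 0.35, TopHat2 2.1.0, SAMtools 0.1.18 and the mm10 build were used; how reads were assigned to genes, and whether by strand, is not given in the sources used here. The 5 lines naming no gene entered neither library sizes nor fits (10.43 to 15.68% of a library's reads lay in no feature, and 0.9702 to 1.086% were ambiguous).

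The labels gave each library its subset, line and Cre status. In R 4.3.3, 13166 genes passed edgeR 4.0.16's filterByExpr (minimum count 10, minimum total 15; all 6 members passed), were scaled by TMM, and were fitted with 8 group means by the quasi-likelihood test, with Benjamini-Hochberg adjustment over all 13166 and a threshold of 0.05. The control comparison of subsets shares libraries with the Cre comparisons. Ratios were tested by exact permutation over libraries. Floors are 3 counts per library and intervals are at 95%. Gene lengths are exon unions of GENCODE M21, and promoters are RefSeq windows, with all 6 members matched by symbol.

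Named genes were the 6 members, up to 4 called genes with the smallest p per list and comparison, and up to 3 nearest patterns per member; some items that this rule names are not reported here. Members and lists were chosen with earlier results of these data known. Alternatives were DESeq2 1.42.0, its size factors, other low-count filters, the compared libraries alone, replicate blocks, other pseudocounts, and leaving out libraries. The edgeR procedure was also run on counts simulated as independent between libraries. The outcome is not given here, and such counts cannot show effects of shared mice or batches.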

Additional observations from a re-analysis of the deposited data

Results flagged for a closer look

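Of the 24 sets of 4 Cre-positive libraries (6 genes in 4 groups) examined for a library far from its group, 2 had one, and chance alone gives about 1 in 20. Fcgr1 was 2.11 CPM (56 counts) in replicate 1 of Cre-positive cDC2 of the transgene line, above the 36 to 40 counts of the other 3, with a gap of 0.972 of the group's range. Fcgr2b was 42.2 CPM in replicate 4 of Cre-positive cDC1 of the transgene line, below the 49.4 to 50.2 CPM of the other 3, with a gap of 0.904 of the range.

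The effect of Cre on Fcer1g in the transgene line differed between subsets, by -2.50 on the log2 scale (cDC2 minus cDC1, edgeR adjusted p = 9.05e-06), and Fcer1g was 6.02-fold higher in Cre-positive than in Cre-negative cDC1 and 1.06-fold higher in cDC2.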

How the results depend on the processing

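No called result changed direction. Of the recomputed fold changes of the 6 genes, 727 stayed on their side of the threshold, 7 lost it (all of Fcgr4 in Zeb2-deleted cDC2) and 4 gained it. With 4 against 2 libraries no setting could bring a ratio to Fcgr2b past 0.05. With 5 in place of 0.5 counts added, the log2 difference of the Fcgr1 ratio was 2.61 (against 3.71) between the control subsets, 0.14 (against -0.37) for the deletion in cDC1 and 0.07 (against 0.43) for the transgene in cDC1. The cDC2 and cDC1 controls differed in 5980 to 7119 genes, against 7035.

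Without the low-count filter, genes called were 71 for the transgene in cDC2 (against 43) and 30 for the line controls in cDC2 (against 18). With the compared libraries alone, they were 1 for the deletion in cDC1 (against 3), 550 for the transgene in cDC1 (against 922), and 85 in cDC2 and 6 in cDC1 for the line controls (against 18 and 17), and Fc receptor genes called were 2 for the deletion in cDC2 (against 1) and 1 for the line controls in cDC2 (against 0). DESeq2 called 7 genes for the deletion in cDC1, 119 for the transgene in cDC2, 336 and 475 for the difference of Cre effects in the deletion and transgene lines (against 142 and 264), and 70 in cDC2 and 53 in cDC1 for the line controls, with 2 Fc receptor genes (against 1) in the transgene-line difference. Without Cre-positive cDC1 replicates 3 and 4, left out after seeing the data, that difference had 417 genes and 2 Fc receptor genes, since Fcgr4 passed (adjusted p = 0.0342). The cause of these changes was not tested.

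With each library left out in turn, the deletion in cDC2 called 142 (without control replicate 1) to 673 genes and 0 Fc receptor genes, the deletion in cDC1 1 to 4, the transgene in cDC2 18 (without control replicate 2) to 45 and the transgene in cDC1 476 (without control replicate 2) to 983. The differences of Cre effects called 21 (without cDC2 control replicate 1) to 161 genes in the deletion line and 138 (without cDC2 control replicate 1) to 335 in the transgene line, and the line controls 9 to 12 in cDC2 and 8 to 12 in cDC1.

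Same-numbered cDC2 and cDC1 libraries deviated together with r of 0.076 to 0.17 in Cre-positive mice and -0.008 and 0.035 in controls, so the numbers were not taken to pair libraries. With replicate number within line as a block, the deletion in cDC2 called 0 Fc receptor genes. That block called 69 genes for the transgene in cDC2 and 8 for the line controls in cDC1. Another block, by line, Cre and number, pairs same-numbered cDC2 and cDC1 libraries. With it the difference of Cre effects in the transgene line called 400 genes. The 2 controls per group and the scarcity of Fcgr1 and Fcgr3 in cDC1 limit what these depths can show.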
